A study of Mus musculus with 18 samples.

Results

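The intercalated disc is the end-to-end contact of cardiomyocytes (CMs), and 10 genes that encode its gap junction and adhesion proteins were followed here: Gja1, Gja5, Gjc1, Cdh2, Ctnna3, Jup, Dsp, Pkp2, Dsg2 and Dsc2. They were taken by symbol from the 35843 Ensembl genes of the count tables, with no use of their measured values, and all 10 were found. The tables hold single cells of mouse heart, captured in the wells of 18 ICELL8 chips and counted as UMIs (molecular tags that count each captured transcript once). The question addressed is how the level of each gene differs between the cell classes of the heart, between postnatal days 4, 7, 14 and 28 (P4, P7, P14, P28), and between hearts given a hairpin against the transcription factor Jun and hearts given a control hairpin.

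Every animal was of the strain labelled Myh6/Esr1-Tomato, in which a tamoxifen-dependent Cre driven by the Myh6 promoter switches on tdTomato from the R26 locus, and the mothers received tamoxifen just after birth. The stage series had 2 animals (P4), 2 (P7), 2 at P14 and 5 at P28, all labelled as having no knockdown and called wild type below. The knockdown series had 2 animals with a lentivirus for shJun and 2 with a lentivirus for the non-targeting hairpin shNT. The virus was injected into the left ventricle soon after birth and cells were taken at the age labelled P28, so that both knockdown groups carried virus and surgery. The virus was not directed to 1 cell type. At P4 and P7 pieces of ventricle were digested in a dish, while older hearts were digested by perfusion, and no chip held 2 stages. Stage, chip and digestion therefore cannot be told apart. By Xist and Ddx3y, both P4 animals were female and both P7 animals male, and the other stages held both sexes.

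Gap junctions are channels made of connexins that join the cytoplasm of neighbouring CMs and carry the electrical impulse. Adherens junctions anchor the actin of the sarcomeres through N-cadherin (Cdh2) and catenins, and desmosomes anchor desmin filaments through desmosomal cadherins (Dsg2, Dsc2), plakoglobin (Jup), plakophilin 2 (Pkp2) and desmoplakin (Dsp). After birth these junctions gather from the sides of the CM to its ends. Gja1 (connexin 43) is the main connexin of the working ventricle, Gja5 (connexin 40) is known from the atria, the ventricular conduction system and arterial endothelium, and Gjc1 (connexin 45) from the conduction system and vascular smooth muscle. Inherited changes in the desmosomal genes are a known cause of arrhythmogenic cardiomyopathy.

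Because hairpins against Jun were used, the 250 bases before the RefSeq start site of the 2 connexins that the results turn on are shown, with the motif TGANTCA, the form bound by AP-1 (the family of Jun), in capitals. The motif reads the same on both strands. The window of Gja1 is at chr10:56377050-56377299 and that of Gja5 at chr3:97032152-97032401, both on the plus strand of GRCm38.p6 (RefSeq), written 5′ to 3′.
Gja1: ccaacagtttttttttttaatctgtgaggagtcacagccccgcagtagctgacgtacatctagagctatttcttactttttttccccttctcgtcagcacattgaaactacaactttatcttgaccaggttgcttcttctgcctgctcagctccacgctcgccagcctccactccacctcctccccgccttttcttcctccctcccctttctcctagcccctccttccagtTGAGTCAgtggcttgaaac
Gja5: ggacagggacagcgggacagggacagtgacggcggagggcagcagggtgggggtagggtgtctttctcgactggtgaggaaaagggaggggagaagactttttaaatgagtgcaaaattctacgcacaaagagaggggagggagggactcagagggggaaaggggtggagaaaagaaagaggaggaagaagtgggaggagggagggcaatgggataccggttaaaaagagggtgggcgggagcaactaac
RefSeq windows of 300 bases (250 before and 50 after the start) were at hand for 5 of the 10 genes, 7 windows in all, and 1 of the 7 held the motif, that of Gja1, with its first base at position -19. Of all 32851 windows, 2565 (7.808%) held it. No binding of Jun was measured here.

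In the annotation of the mm10 build, Gja1 lies at chr10:56377330-56402513 on the plus strand with no other gene over it, and Gja5 at chr3:96904693-97077416 on the plus strand, where other genes lie on the opposite strand. The remaining connexin, Gjc1, is at chr11:102799579-102819700 on the minus strand. The adhesion genes are Cdh2 (chr18:16588877-16809246, minus), Ctnna3 (chr10:63430098-65003667, plus, with 3 genes on the other strand, Lrrtm3 among them), Jup (chr11:100368958-100397763, minus), Dsp (chr13:38151294-38198577, plus), Pkp2 (chr16:16213318-16272712, plus), Dsg2 (chr18:20558074-20604521, plus) and Dsc2 (chr18:20030633-20059554, minus). Whether the counting used the strand is not given in the sources used here, so UMIs of Gja5 and Ctnna3 may include transcripts of the genes that overlap them, and so may those of Cdh2, Dsp and Dsg2, which each have 1 gene on the other strand (Gm15485, Gm10129 and Gm16090).

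After the cell filters 19822 of 23475 cells were kept (12829 of 15993 wild type and 6993 of 7482 knockdown), with between 11161784 and 133264535 UMIs a chip and a median of 6733 (P28) to 15514 (P7) UMIs a cell in the stages and 32359 in the knockdown. Well barcodes recurred between chips (4890 of 5051 were on at least 2), so a cell was named by its chip and barcode. Cells were clustered by stage or animal and named from marker lists. Gene levels are given in CPM, the UMIs of a gene scaled to a common total of nuclear UMIs after summing over all cells of a class in an animal, which is the replicate. All 8 CM markers (Myh6, Tnnt2 and others) were found in every CM-like sum, with 38610 to 82350 CPM in wild type and 107800 to 125800 in the knockdown. CM markers also reached 5549 to 26210 CPM in Endothelial-like cells at P28, a measure of CM transcripts in wells of another class. There were 121 and 183 CM-like cells in the P4 animals, 30 in the only P7 animal with at least 20, 307 and 149 at P14, and 257 to 577 at P28. The 6 erythroid markers in CM-like sums stood at 219 and 504 CPM at P4, 1343 at P7, 88370 and 3467 at P14, 4513 to 83830 at P28, and 9777 to 23170 in the knockdown. Of the 307 CM-like cells of P14 animal m1, 178 held more marker UMIs of another class than of their own.

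**Figure D1:**
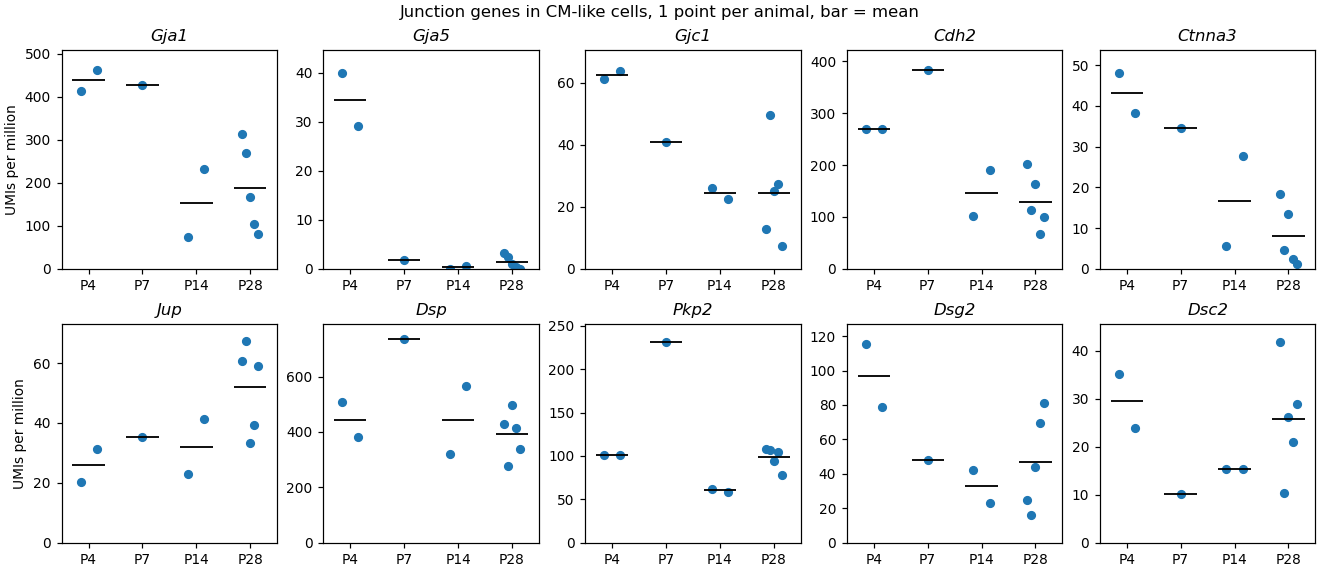
CPM in CM-like cells for each of the 10 genes (vertical axis, linear) (P4), P7, P14 and P28 (horizontal axis), with 1 point per animal and a bar at the mean of the stage. Both P4 animals stand above every later animal for Gja5, while for Dsp and Pkp2 the P28 animals lie close to the P4 animals.

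In CM-like cells Gja5 fell from P4 to P14 and from P4 to P28, and did not pass the test from P4 to P7 (log2 change -4.12, adjusted p = 0.318 in edgeR's quasi-likelihood test). The 2 P4 animals held 39.9 and 29.2 CPM, from 217 and 256 UMIs. The P7 animal held 1.89, from 3 UMIs, and the P14 animals 0 and 0.567, from 0 and 1 UMI. The P28 animals held 3.32, 2.33, 0.972, 0.31 and 0. Every later animal was thus below both P4 animals. A count of 0 allows up to 0.664 CPM in the P14 animal and up to 1.847 in the P28 animal with none (3 counts of the sum).

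The fitted log2 change of Gja5 was -4.22 (SE 0.86) from P4 to P28 (adjusted p = 0.00735, edgeR's quasi-likelihood test) and -6.60 (SE 1.56) from P4 to P14 (adjusted p = 0.0288). Summed over animals, P4 held 473 UMIs in 14221492 and P28 held 42 in 34707648, a ratio of 27.48 (95% exact interval 20.02 to 38.64). Against the 1 UMI of P14 the ratio was 208.9 (37.31 to 8269) and against the 3 UMIs of P7 it was 17.62 (5.993 to 85.75), and these intervals cover counting error only. Few cells carried these UMIs: 32 of 121 and 39 of 183 CM-like cells at P4 had at least 1, and the richest cell gave 18.4% and 22.7% of them. The call at P28 was lost without either P4 animal (adjusted p = 0.101 without M1 and 0.0687 without M2) and with cells thinned to 5000 UMIs (log2 change -2.96, adjusted p = 0.0686). The call at P14 was lost without any of the 4 animals compared (adjusted p from 0.0513 to 0.158), in the fit of the 2 stages alone (0.0551), with sums of at least 10 cells (0.052) and after thinning (log2 change -4.56, adjusted p = 0.122).

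Sequencing depth and the presence of atrial-like cells differed between the stages beside the Gja5 result. The median of CM-like cells at P4 was 29290 and 28146 UMIs a cell, against 4407 to 38267 at P28, and P28 animal b, at 38267, had a Gja5 UMI in 6 of 577 cells. Before thinning, 21.31 to 26.45% of P4 CM-like cells and 0 to 2.059% of P28 CM-like cells had a Gja5 UMI. In Macrophage-like cells of P4, a class not known for the gene, the share was 0 to 1.639%, at a median of 9670 and 13358 UMIs. Thinned to 1000 UMIs a cell, the CM-like shares were 1.653 to 2.186% at P4 and 0 to 0.59% at P28, near the level of single UMIs. The part of depth and of the erythroid UMIs in the Gja5 result was not tested.

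At P4 the CM-like cells fell into 2 clusters, 1 of 185 cells led by Sln, Myl7 and Nppa, called atrial-like, and 1 of 119 cells led by Ttn, Alpk2 and Ryr2. The labels name ventricle only. Atrial-like cells made up 65 of the 121 cells of animal M1 and 120 of the 183 of M2. The 8 atrial markers summed to 18530 to 28520 CPM in CM-like cells of P4, to 350.5 in P7, to 3.404 to 13.28 at P14 and to 32.11 to 665.6 at P28. Gja5 was lower in the atrial-like cluster in both animals, at 31.3 against 54.3 CPM in M1 and 23.4 against 55.1 in M2. With the atrial-like clusters left out, the log2 change of Gja5 from P4 to P28 was -4.67 (adjusted p = 0.00412). The other CM-like cells of M1 and M2 still held Myl7 at 6698 and 3595 CPM and Sln at 3724 and 2193 CPM. Fits without the atrial-like clusters, here and below, therefore did not remove all atrial transcripts from the P4 sums.

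Over all 10 genes, 1 passed the threshold in CM-like cells from P4 to P28, where 5.61% of all tested genes did, and 1 from P4 to P14, where 2.87% did; both times it was Gja5. From P4 to P7, where 0.0471% of genes passed, 0 of the 10 did (2 at an unadjusted p under 0.05, Gja5 and Pkp2, and 0 by DESeq2). From P14 to P28, where 0.0135% passed, 0 of the 10 did (0 unadjusted and 0 by DESeq2). All 10 were tested in each of these fits. The median log2 change of the 10 from P4 to P28 was -0.72, against 0.09 over all tested genes. These changes use TMM scaling, which lies 0.343 above the plain CPM scale for P28 against P4 and 0.842 above it for P14 against P4 on the log2 axis. The CPM levels quoted are unscaled.

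Gja1 had 414 and 462 CPM in CM-like cells (P4), 426 (P7), 74.6 and 232 (P14), and 312, 269, 167, 104 and 81.9 at P28. All wild-type P14 and P28 animals were below both P4 animals, but they spread widely, and the log2 change from P4 to P28 was -0.87 (SE 0.48, adjusted p = 0.301 in edgeR's quasi-likelihood test). With cells thinned to 1000 UMIs, 33.88% of CM-like cells of each P4 animal and 6.615 to 22.42% at P28 had a Gja1 UMI, against 0 to 5.455% of Macrophage-like cells at P28. Unthinned, the CM-like shares were 80.99 to 87.43% at P4 and 19.46 to 77.47% at P28. CM-like cells without the atrial-like clusters gave a log2 change of -0.74. In the shNT animals, also labelled P28 but injected and sequenced more deeply, Gja1 stood at 305.3 and 466.5 CPM and Cdh2 at 242 and 353. Neither gene was thus below P4 in both shNT animals. Gja5, Gjc1 and Ctnna3 were below both P4 animals in both (at most 7.207, 23.7 and 28.66). Dsp, Pkp2 and Jup were above both P4 animals in both (at least 1054, 187 and 57.65).

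In CM-like cells Gjc1 had 61.4 and 63.9 CPM (P4), 40.9 (P7), 26.1 and 22.7 (P14), and 13, 49.6, 25, 27.3 and 7.39 at P28. Each later animal was below both P4 animals in these sums, but by the mean over cells the P7 animal (53.92) was above P4 animal M2 (49.86). The log2 change from P4 to P28 was -0.94 (SE 0.56, adjusted p = 0.345), which did not pass.

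Among the adherens junction genes, Cdh2 (N-cadherin) had 270 and 269 CPM in CM-like cells (P4), 384 (P7), 102 and 191 (P14), and 202, 113, 164, 66.3 and 99.7 at P28. The P7 animal, with 36.23% of its UMIs from 1 cell, was the highest and all wild-type P14 and P28 animals were below P4, with a log2 change to P28 of -0.71 (SE 0.40, adjusted p = 0.311). Ctnna3 (alpha-T-catenin, which links cadherins to actin in the heart) had 48.1 and 38.2 (P4), 34.6 (P7), 5.53 and 27.8 (P14), and 18.3, 4.65, 13.3, 2.48 and 1.23 at P28. Every later animal was below both P4 animals. Its log2 change to P28 was -2.0025 (SE 0.72, adjusted p = 0.109), and it passed under 3 alternatives: without the filter on low counts (adjusted p = 0.0123), with sums per chip (0.0301) and with cells thinned to 5000 UMIs (0.0252).

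Jup (plakoglobin, which serves both junction types) went the other way, with 20.2 and 31.4 CPM (P4), 35.2 (P7), 22.8 and 41.4 (P14), and 60.6, 67.4, 33.3, 39.4 and 59.1 at P28. All P28 animals were above both P4 animals. The log2 change was 1.33 (SE 0.46, adjusted p = 0.0978 in edgeR's test), with an adjusted p of 0.0267 in DESeq2. Without the atrial-like clusters it was 0.33 (adjusted p = 0.719), and in P4 animal M2 Jup stood at 94.6 CPM in the other CM-like cells and at 17.4 in the atrial-like ones. Endothelial markers in CM-like cells also stood higher at P28 than at P4 (values below), and their part in the Jup change was not tested.

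Of the desmosome genes, Dsp (desmoplakin, which ties the plaque to desmin) had 509 and 381 CPM in CM-like cells (P4), 736 (P7), 319 and 564 (P14), and 429, 276, 498, 415 and 338 at P28. P4 and P28 overlapped, and the log2 change of 0.17 (SE 0.36, adjusted p = 0.821) became -0.08 with thinned cells and -0.48 without the atrial-like clusters. Pkp2 had 101 and 102 (P4), 232 (P7), 62.2 and 59 (P14), and 108, 107, 93.7, 105 and 77.6 at P28. The single P7 animal was above all others and the log2 change from P4 to P7 was 1.23 (unadjusted p = 0.0221, adjusted p = 0.303), from 30 cells of which 1 gave 42.66% of the UMIs.

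Dsg2 (desmoglein 2) had 115 and 78.7 CPM (P4), 47.8 (P7), 42.5 and 23.3 (P14), and 24.6, 15.9, 44.1, 69.7 and 81.3 at P28. The 2 animals of the c chips at P28 lay near P4 and the 2 of the a chips far below, and the log2 change was -0.72 (SE 0.50, adjusted p = 0.42). Dsc2 (desmocollin 2), its partner in the desmosome, had 35.1 and 23.8 (P4), 10.1 (P7), 15.3 in both P14 animals, and 41.8, 10.5, 26.3, 21.1 and 28.9 at P28. The stages overlapped, with a log2 change to P28 of 0.13 (SE 0.51, adjusted p = 0.909). On the plain CPM scale the changes of Dsp, Pkp2 and Dsc2 had the other sign (-0.19, -0.04 and -0.19).

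**Figure D2:**
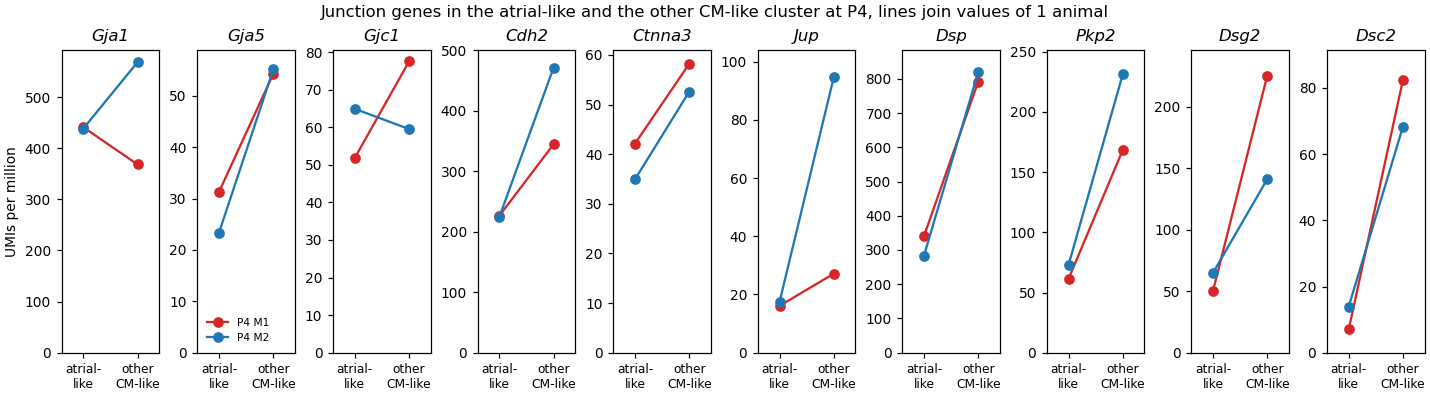
CPM of the 10 genes at P4 in the atrial-like cluster and in the other CM-like cells (vertical axis, linear), with a line joining the values of 1 animal. Dsp, Pkp2, Dsg2, Dsc2, Cdh2, Ctnna3, Jup and Gja5 were lower in the atrial-like cluster in both animals, and Gja1 and Gjc1 differed in opposite directions between the animals.

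Within P4, the desmosome genes differed between the 2 kinds of CM-like cell. Dsp was at 341 CPM in atrial-like and 792 in other CM-like cells of M1, and at 284 and 820 in M2. Pkp2 was at 61.2 and 168 in M1 and at 72.8 and 231 in M2. Both were lower in the atrial-like cells of each animal, and Dsg2 (50.1 against 225, and 64.9 against 141) and Dsc2 (7.03 against 82.4, and 13.9 against 68.3) were lower too. Cdh2 was at 226 against 345 in M1 and 224 against 471 in M2, and Ctnna3 at 42.2 against 58.2 and 35.0 against 52.6. Gja1 was at 441 against 368 in M1 and at 438 against 568.1 in M2, so that its order turned between animals. These clusters were drawn from the same counts, so the differences are a description and carry no test. The atrial-like cells were absent as a cluster at later stages. In the P4 to P28 comparison without that cluster, 9 of the 10 genes had a negative change, all but Jup, with Dsg2 at -1.45 (adjusted p = 0.0787) and Dsc2 at -1.02 (adjusted p = 0.21).

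**Figure D3:**
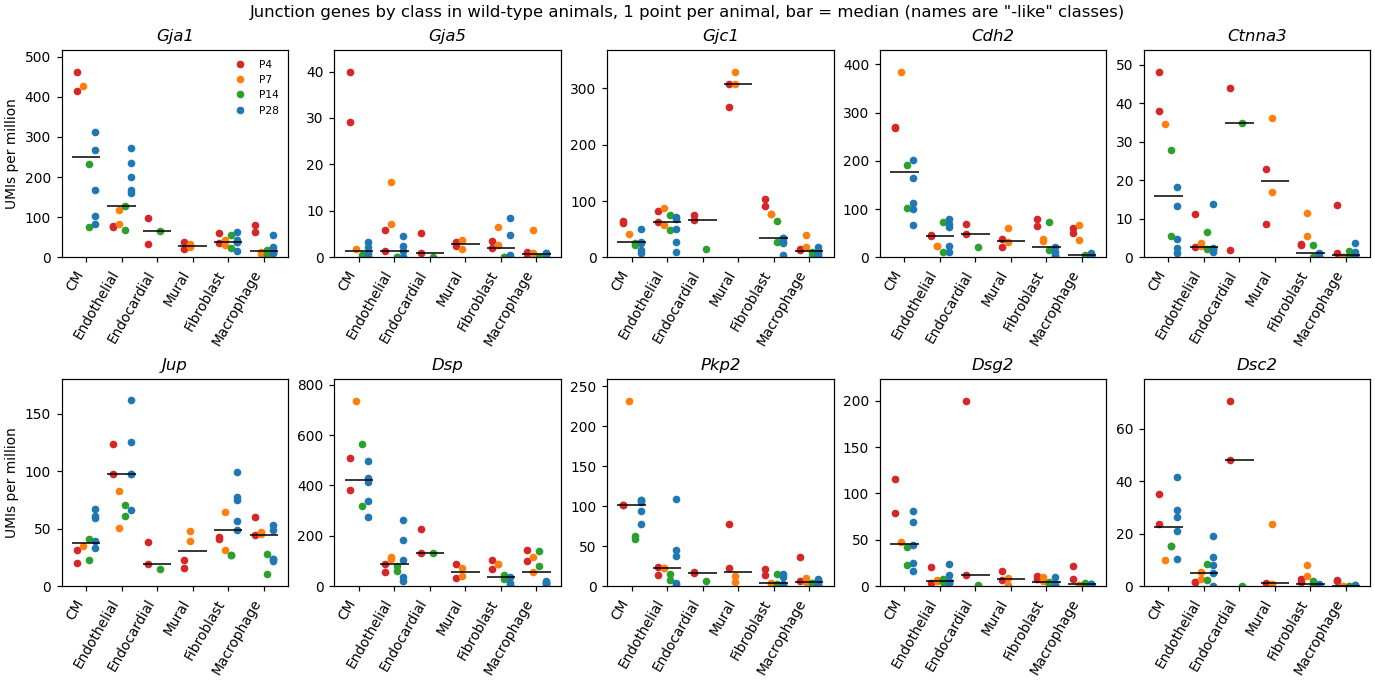
CPM of the 10 genes (vertical axis, linear) in 6 cell classes of wild-type hearts, with 1 point per animal coloured by stage and a bar at the median. CM-like cells have the highest median for Gja1, Cdh2, Dsp and Pkp2, Mural-like cells for Gjc1 and Endothelial-like cells for Jup.

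Between the cell classes, Gja1 had a median of 250.3 CPM in CM-like (10 wild-type animals, 74.59 to 462), 127.8 in Endothelial-like (11 animals), 65.19 in Endocardial-like (3), 38.88 in Fibroblast-like (11), 29.24 in Mural-like (4) and 15.21 in Macrophage-like cells (11). CM-like cells were above Endothelial-like cells in 8 of 10 animals and above Fibroblast-like cells in 10 of 10. The exceptions were P28 animals cM1 and cM2, and the P28 means were 186.7 CPM in CM-like and 207.0 in Endothelial-like cells. The medians pool unlike stages, since Mural-like sums were of P4 and P7 only and Endocardial-like ones of P4 and P14. The ranges of CM-like and Endothelial-like cells overlapped. Cdh2 had a median of 177.2 in CM-like cells, 47.92 in Endocardial-like and 43.16 in Endothelial-like cells, and Dsp 422.1, 132.7 and 86.53. Cdh2, Dsp, Dsg2 and Dsc2 were higher in CM-like than in Endothelial-like cells of all 10 animals, Pkp2 in 9 and Ctnna3 in 8.

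The orders of Gjc1 and Jup were different. Mural-like cells (pericytes and smooth muscle by their markers) held 308 and 267 CPM of Gjc1 at P4 and 329 and 308 (P7), all above every other class of the same 4 animals that is plotted. With cells thinned to 1000 UMIs, 18.31 to 19.12% of Mural-like cells at P4 and 22.22 to 24.4% at P7 had a Gjc1 UMI, against 1.639% of Macrophage-like cells in both P4 animals and 0 to 2.632% at P7. Unthinned, the Mural-like shares were 42.25 to 57.64% and the Macrophage-like ones 9.836 to 11.63%. The medians of the next classes, 67.02 (Endocardial-like), 63.27 (Endothelial-like), 34.01 (Fibroblast-like) and 26.7 (CM-like), had overlapping ranges. CM-like cells were above Endothelial-like cells for Gjc1 in 2 of 10 animals. Jup was lower in CM-like than in Endothelial-like cells in all 10, with Endothelial-like levels of 97.2 and 123 (P4), 83.2 and 50.5 (P7), 70.2 and 60.9 (P14), and 97.8, 162, 97.8, 66.3 and 125 at P28. Plakoglobin is known to be part of endothelial junctions too.

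CM transcripts were found in the other classes, and each level was set beside that of the CM markers in the same sum. In Endothelial-like cells the CM markers stood at 10.19 to 55.14% of their CM-like level (median 21.78%). Each gene's level was divided by the level it would have if it stood to the CM markers as in the CM-like cells of that animal, so that a ratio of 1 means the CM-like proportion. For Jup the median was 8.854 times (above 1 in 10 of 10 animals), for Gjc1 7.469 times (10 of 10) and for Gja1 2.337 times (8 of 10). For Cdh2 it was 0.8034 (3 of 10), for Dsp 0.8224 (4 of 10), for Pkp2 0.8568 (5 of 10), for Dsg2 0.858 (2 of 10), for Dsc2 1.226 (5 of 10), for Ctnna3 1.016 (6 of 10) and for Gja5 1.003 (4 of 10). In Fibroblast-like cells the median was 20.41 times for Gjc1 and 13.59 times for Jup, above 1 in 10 of 10 animals for both. There it was 5.739 for Gja5 (4 of 10), 2.335 for Gja1 (7 of 10) and 1.279 for Cdh2 (5 of 10). It was 0.9845 for Pkp2 (5 of 10), 0.8737 for Dsp (4 of 10), 0.7604 for Dsg2 (3 of 10), 0.4835 for Ctnna3 (4 of 10) and 0.4135 for Dsc2 (1 of 10). The part of CM transcripts in these levels was not tested. For Gja5 no ratio exists in P14 animal m1 and P28 animal cM2, whose CM-like cells held no Gja5 UMI. Its medians in both classes therefore rest on fewer than 10 animals.

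In Endothelial-like cells Gja1 had 78.3 and 75.6 CPM (P4), 83.6 and 117 (P7), 67.9 and 128 (P14), and 234, 167, 159, 201 and 273 at P28. In these sums every P28 animal was above every younger animal, though 1 cell gave 51.89% of the UMIs of P28 animal cM2. By the mean over cells the separation was lost, with P28 from 120.6 to 276.6 CPM against 115.0 and 132.7 in the P4 animals and up to 127.4 at P14. The log2 change from P4 to P28 was 1.60 (SE 0.41, adjusted p = 0.0598 in edgeR's quasi-likelihood test), just outside the threshold, and DESeq2 gave 1.70 (adjusted p = 0.00113). It passed with sums per chip (adjusted p = 0.0136), and was 0.98 (adjusted p = 0.283) with thinned cells and 1.24 (adjusted p = 0.541) without cells that held more markers of another class. In CM-like cells the gene stood lower at P28 than at P4, and the test of the difference between the 2 classes' changes gave -2.52 (SE 0.67, adjusted p = 0.237, and 0.0517 in DESeq2). That test treated the 2 classes of an animal as independent samples, which they are not. Of the 10 genes, 0 passed from P4 to P28 in Endothelial-like cells (2 unadjusted, 1 by DESeq2), where 1.59% of all genes did, and 0 from P4 to P7 (0 unadjusted, 0 by DESeq2), where 0.0332% did. In the test of the difference between CM-like and Endothelial-like changes 0 of the 10 passed (3 unadjusted, 0 by DESeq2), with 0% of all genes called. The Endothelial-like class of P28 joined 2 unlike clusters. In 1 of 348 cells Pkp2, Dsg2 and Dsc2 stood at 105.3, 26.72 and 25.47 CPM, against 102.6, 43.82 and 29.36 in the largest CM-like cluster. In the other, of 576 cells, they stood at 1.297, 1.621 and 0.1621. The part of the first cluster in the P28 levels was not tested.

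Gja5 in Endothelial-like cells was highest (P7), at 16.2 and 7.16 CPM from 151 and 68 UMIs, against 5.96 and 1.46 (P4), 0 and 0 (P14), and 0 to 4.51 at P28. At P4 both animals were thus below the P7 animals, by few UMIs (29 and 6).

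In Fibroblast-like cells the adhesion genes Dsp and Cdh2 stood lower at P28 than at P4. Dsp had 106 and 67.8 CPM (P4), 87.4 and 86.5 (P7), 46.2 and 27.3 (P14), and 6.71, 35.6, 11.8, 2.69 and 2.59 at P28. Cdh2 had 79.1 and 64.2 (P4), and 3.58, 10.8, 4.37, 0 and 20.7 at P28. Gjc1 had 91.3 and 103 (P4), and 27.7, 34, 33.9, 26.1 and 3.89 at P28. For each of the 3 genes, no P28 animal reached a P4 animal.

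The log2 changes were -2.78 for Dsp (SE 0.73, adjusted p = 0.0578), -3.13 for Cdh2 (SE 0.90, adjusted p = 0.0852) and -1.88 for Gjc1 (SE 0.59, adjusted p = 0.119). None passed in edgeR, and DESeq2 called all 3 (adjusted p = 0.0184, 0.0386 and 0.0344). So 0 of the 10 passed from P4 to P28 (4 unadjusted, 3 by DESeq2), where 2.24% of all genes did, and 0 from P4 to P7 (0 unadjusted, 0 by DESeq2), where 0.0199% did. CM markers in Fibroblast-like cells moved the same way, from 9203 to 10590 CPM at P4 to 753 to 3742 at P28, and Actc1 (-2.46, adjusted p = 0.0127) and Actn2 (-2.74, adjusted p = 0.0263) passed; their part in the result was not tested. Of the 2 Fibroblast-like clusters at P28, 1 of 652 cells had a granulocyte marker (Mmp9) and no fibroblast marker among its top 10 genes, and without it the changes of Dsp, Cdh2 and Gjc1 were -1.98, -2.86 and -2.08 (adjusted p = 0.472, 0.152 and 0.0832). The test of the difference from the CM-like change called 0 of the 10 (4 unadjusted, 0 by DESeq2), with 0% of all genes called. It too treated the classes of an animal as independent samples.

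In Endocardial-like cells the levels of desmosomal genes rested on few cells. Dsc2 was at 70.7 and 48.3 CPM in the P4 animals and at 0 in the P14 animal, and Dsg2 at 200 in P4 animal M1 and at 11.7 in M2. Of these UMIs the richest cell gave 66.43% and 54.37% for Dsc2 and 69.8% and 40.0% for Dsg2. Ctnna3 was at 44, 1.88 and 34.9 in the 2 P4 animals and the P14 animal, with 97.75%, 50% and 100% of its UMIs from the richest cell. For Dsg2 and Ctnna3 the 2 P4 animals differed too widely to place Endocardial-like cells above or below CM-like cells.

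**Figure D4:**
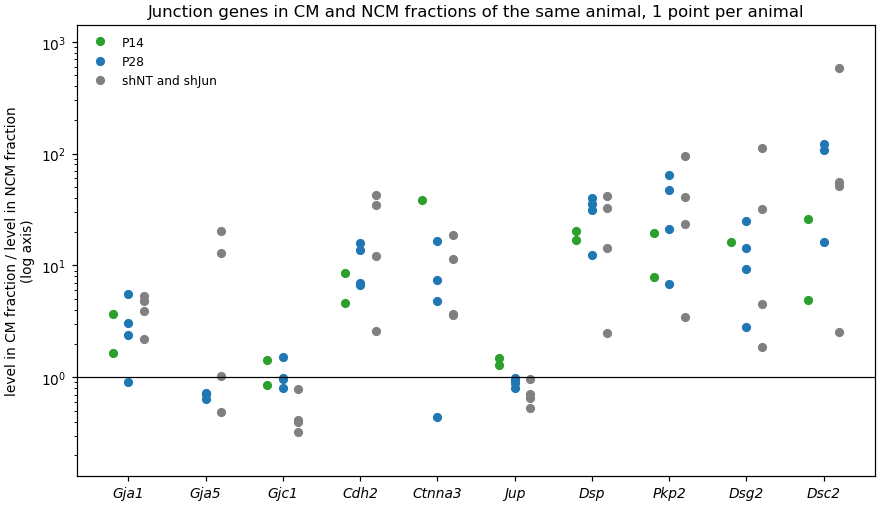
Ratio of the CPM in the CM fraction to those in the non-CM fraction of the same animal (vertical axis, logarithmic) for the 10 genes, with 1 point per animal of P14, P28, shJun and shNT; ratios with a level of 0 are not drawn. Dsp and Pkp2 lie above 1 in all 10 animals. Jup and Gjc1 lie around 1 in the wild-type animals and below 1 in every shJun and shNT animal.

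From P14 on, wells were recorded by the authors as CM or non-CM fraction, separated by centrifugation, which gives a contrast that needs no cell names. In the 6 wild-type animals with both fractions, Dsp was 20.4 and 16.9 times as high in the CM fraction at P14 and 31.4, 12.4, 39.9 and 35.1 times at P28. Pkp2 was 19.4 and 7.8 times as high at P14 and 6.76, 21.1, 64.1 and 47.5 times at P28, and Cdh2 8.6 and 4.6 times at P14 and 15.8, 13.6, 6.64 and 6.9 times at P28. All 3 were above 1 in each animal. Gja1 stood 3.69 and 1.65 times as high at P14 and 5.54, 3.03, 2.37 and 0.904 times at P28. Gjc1 (0.804 to 1.52) and Jup (0.799 to 1.47) stood close to 1. In the shJun and shNT animals both were below 1, Gjc1 at 0.323 to 0.779 and Jup at 0.536 to 0.955. At P28 the fractions were on separate chips, at P14 on the same chip.

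The other genes of the disc were taken from 5 lists. Over all genes tested in CM-like cells, 5.61% passed from P4 to P28 and 2.87% from P4 to P14. The P4 sums include the atrial-like cells, and no fit without them is given for the lists. Of 17 further connexins 3 were tested in CM-like cells, and Gja3 (connexin 46) fell from P4 to P28 (log2 change -3.37, adjusted p = 0.0353, edgeR). Of 17 genes of the adherens junction and area composita 16 were tested and Xirp2, which binds actin at the disc, rose to P14 (1.95, adjusted p = 0.0268) and P28 (2.51, SE 0.42, adjusted p = 0.00241). Xirp2 also rose from P4 to P28 in Endothelial-like cells (4.26, adjusted p = 0.00594, edgeR). Of 9 disc-associated channels and scaffolds 9 were tested and 0 passed at P28, while Tmem65 rose to P14 (1.82, adjusted p = 0.0461). Of 7 other cadherins 3 were tested. Cdh13 (T-cadherin) fell (-1.53, adjusted p = 0.021) and Cdh5, the cadherin of endothelium, rose (1.77, adjusted p = 0.0114) from P4 to P28. The endothelial markers in CM-like cells stood at 244.7 to 422.4 CPM at P4 and at 760.8 to 1116 at P28. Their part in the changes of Cdh5 and of Jup, which was higher in Endothelial-like than in CM-like cells, was not tested. Of 11 other desmosome genes 2 were tested and 0 passed.

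**Figure D5:**
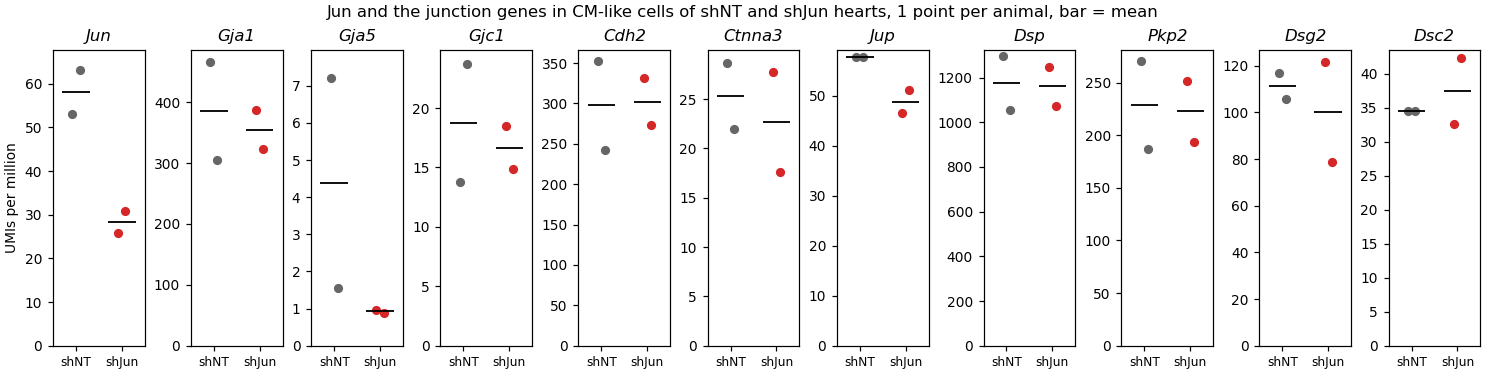
CPM of Jun and the 10 genes in CM-like cells (vertical axis, linear) of the 2 shNT and 2 shJun animals, with 1 point per animal and a bar at the mean. Jun is lower in both shJun animals; of the 10 genes, Gja5 and Jup have both shJun animals below both shNT animals.

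In the knockdown, Jun itself was at 53.0 and 63.2 CPM in CM-like cells of the shNT animals and at 25.8 and 30.9 in the shJun animals. The log2 change was -1.07 (SE 0.24, unadjusted p = 0.00415 in edgeR's quasi-likelihood test), which did not pass the adjustment over all genes. In Endothelial-like cells the change of Jun was -0.10 and in Fibroblast-like cells 0.20. Both shJun animals were below both shNT animals in CM-like cells, and the groups overlapped in the other 2 classes.

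Of the 10 genes, 0 passed in CM-like cells between shJun and shNT (1 unadjusted, 0 by DESeq2), where 0% of all genes did (381 unadjusted, 10 by DESeq2). Dsp stood at 1295 and 1054 CPM in shNT and at 1248 and 1074 in shJun, a log2 change of -0.05 (SE 0.22). Gja1 stood at 466.5 and 305 against 387 and 323 (-0.15, SE 0.27), and Cdh2 at 353 and 242 against 331 and 273 (-0.01, SE 0.26). In each case the shJun animals lay between the shNT animals, so the spread within a group exceeded the difference. Pkp2, Dsg2, Dsc2, Ctnna3 and Gjc1 changed by -0.19 to 0.09 with overlapping groups.

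Gja5 in CM-like cells was at 7.21 and 1.56 CPM in shNT and at 0.969 and 0.887 in shJun (log2 change -2.28, SE 0.84, unadjusted p = 0.0355, not passing after adjustment). In shNT animal 1, 1 cell gave 70.0% of its 503 UMIs, and without that animal the change was -0.76. Jup was at 57.8 and 57.6 in shNT and at 46.4 and 51.1 in shJun (-0.27, SE 0.21), with no overlap. In Endothelial-like cells 0 of 9 tested genes passed (0 unadjusted, 0 by DESeq2), where 0% of all genes did, and in Fibroblast-like cells 0 of 9 (0 unadjusted, 0 by DESeq2), where 0% did; Gja5 was too low to be tested there. The whole Endothelial-like class of shJun animal 1 was 1 cluster of 279 cells with an epicardial marker (Wt1) and 0 endothelial markers among its top 10 genes, and 1 CM-like cluster of 238 cells in shNT animal 2 had a lymphatic marker (Ccl21a) and 0 CM markers there. Without these clusters 0 of the genes passed in either class (0 unadjusted), with 1 shJun animal left in the Endothelial-like fit, which is assumed to vary like the shNT animals. None of the 5 further lists had a gene that passed in CM-like cells. In the test on simulated sums of this size, 27 of 97 genes changed by 2 on the log2 scale and 70 of 90 changed by 4 were called. Each time 10 unchanged genes were called too.

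The 10 genes varied together to differing degrees over the 66 sums of a class in an animal. The closest pairs were Cdh2 with Dsp (Pearson's r of log levels 0.799) and Dsp with Pkp2 (0.796), and the least alike were Dsg2 with Jup (0.099) and Jup with Ctnna3 (0.151). Within the 10 wild-type CM-like sums Cdh2 and Ctnna3 (0.918) and Gja1 and Cdh2 (0.859) were closest. Among 22417 genes, those most like Gja1 over the 66 sums were Idh3a (0.806), Cisd1 (0.799) and Mdh1 (0.794), and those most like Gja5 were Rnf217 (0.688), Gm5752 (0.681) and Gm18367 (0.679). These sums share animals, chips and depth, so the values are a description.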

How the data were processed

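The authors deposited raw UMI counts per gene and well with a report on each well. Per the submitters' processing notes and the study's methods, reads were aligned to mm10 with STAR 2.5.2b and assigned to Ensembl genes with featureCounts of Subread 1.4.6-p1. The deposited counts were used as they stand, and all wells' totals were checked against the reports (equal in 23656 wells). Animals, hairpins and fractions come from those reports, because the labels call the knockdown chips mixed. Wells of P28 chips b carry no animal name and were counted as 1 animal, which may hold more than 1. The names M1 and M2 on the P28 a and c chips were taken as different animals, whose Xist levels differ. No column of per-sample values was left unused (0).

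Cells with at least 500 genes and a log10 UMI total within 2 SD of their stage's mean were kept, after mitochondrial genes were left out. The wild-type files hold more wells than the study states, and its stated filter gave the cell numbers above. Each stage or knockdown animal was clustered (10 principal components, 30 neighbours, leidenalg 0.10.2, Python 3.11.15), and a cluster was called X-like where at least 3 markers were detected. These names can differ from the study's own. No doublet caller was run, since wells were imaged for single live cells, and cells with mixed markers were left out as an alternative. The wells do not show free RNA levels directly, so CM markers in other classes were used.

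Counts were summed per class and animal (at least 20 cells, which dropped the 10 CM-like cells of P7 animal M1) and tested with edgeR 4.0.16 (R 4.3.3, TMM, filterByExpr, quasi-likelihood, 2-sided) with Benjamini-Hochberg adjustment over all genes at 0.05, with all stages or all knockdown animals in 1 fit. Differences between the changes of 2 classes were fitted on their P4 and P28 sums together. Classes of 1 animal are not independent, which these fits do not model. SEs were derived from the change and its F. The tests of the study across single cells were not used, because cells are not replicates. DESeq2 1.42.0, other scalings, filters, cell sets and leaving out each animal were alternatives. Tested on simulated sums for CM-like P28 against P4 (14868 genes), 22 of 86 genes changed by 2 on the log2 scale and 82 of 102 changed by 4 were called, with 7 unchanged ones. Chips were shared by 2 pairs of knockdown animals, with correlations of their deviations of 0.363 (CM-like), 0.039 (Endothelial-like) and 0.095 (Fibroblast-like). Intervals and limits (3 counts for 0) cover counting error only.

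Every one of the 10 genes is described, list genes where they passed in a CM-like contrast or the knockdown, and the 3 genes most like Gja1 and Gja5. The members and lists were chosen with earlier results of these data known. Classes were built from these counts, so class differences carry no test.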

Additional observations from a re-analysis of the deposited data

Results flagged for a closer look

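In 4 of 30 groups of 5 P28 animals (10 genes in 3 classes), 1 animal stood far from the other 4. The rule is set to flag about 1 in 20 groups of independent values. These 30 groups share the same 5 animals and some flags rest on 3 or 8 UMIs, so no excess over that rate can be read. Gjc1 in Fibroblast-like cells of animal cM2 was at 3.888 CPM, from 3 UMIs, while the other 4 animals lay between 26.05 and 34.01. Dsp in Fibroblast-like cells of animal aM2 was at 35.63, from 132 UMIs of which 34.85% came from 1 cell, and the others lay between 2.592 and 11.83. Dsc2 in Fibroblast-like cells of the same animal was at 0.8098, from 3 UMIs, with the next animal at 0.1286. Ctnna3 in Endothelial-like cells of animal cM1 was at 13.95, from 8 UMIs of which 87.5% came from 1 cell, with the next animal at 2.462.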

How the results depend on the processing

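Counts of the 10 genes past the threshold held within 1.5 times in 220 of 243 alternative fits. Of 336 log2 changes, 298 were counted as the same, 19 as stronger, 10 as weaker and 9 as reversed. Levels and shares held less often, with 19 of 31 the same and 12 moved. All comparisons but CM-like P14 and P28 against P4 started from a count of 0, several with few or no genes called at all. A held count says little there. The alternatives without TMM factors, and without clusters led by another class's markers, were chosen after seeing the data. The CM-like P14 against P4 count fell from 1 to 0 with sums of at least 10 cells, with cells thinned to 5000 UMIs and in the fit of 2 stages. The CM-like P28 against P4 count was 2 with DESeq2 (with Jup), without the low-count filter and with sums per chip (both with Ctnna3), and after thinning the 1 gene called was Ctnna3, not Gja5. In Endothelial-like cells at P28 it was 1 (Gja1) with DESeq2 and with sums per chip. In Fibroblast-like cells at P28 it was 3 with DESeq2, 2 without the filter, 1 after thinning and 2 per chip. The difference between CM-like and Fibroblast-like changes gave 1 (Dsp) without the filter. The cause of these moves was not tested. Leaving out 1 animal gave 0 to 1 for CM-like P14 against P4 (0 without either P4 or either P14 animal), CM-like P28 against P4 (0 without either P4 animal), Fibroblast-like P28 against P4 (1 without P14 m2, P28 aM2 or P28 cM2) and the CM-like against Fibroblast-like difference (1 without P28 aM2), and 0 to 0 for the other 9 comparisons. The CM-like P28 change turned sign for Dsp without TMM factors (-0.19), thinned (-0.079) and without atrial-like clusters (-0.48), for Pkp2 without TMM factors (-0.0429) and without atrial-like clusters (-0.46), and for Dsc2 without TMM factors (-0.19), without atrial-like clusters (-1.02), without P28 aM1 (-0.0713) and without P4 M2 (-0.0609; leaving out 1 animal gave -0.0713 to 0.366).

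With the chip pairing of the knockdown animals as a replicate block, 0 of the genes passed in all 3 classes, and Gja5 changed by -1.89. Sums per chip gave no fit for CM-like P7 against P4, and leaving out mixed cells gave none for Endothelial-like shJun. With 2 animals at P4, P7 and P14, a fall of 2 on the log2 scale in a gene as low as Gja5 can be missed.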

Other observations

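At P28 the CM-like cells formed 4 clusters that differed in the junction genes, given here as CPM with no test. The largest, of 850 cells, had Gja1 at 198.9, Cdh2 at 173.7 and Dsp at 490.4. A cluster of 569 cells led by Acta1 and Nppb had Gja1 at 96.4, Cdh2 at 80.15 and Dsp at 398.5, with Dsg2 at 72.36 against 43.82 in the largest. In a cluster of 326 cells Dsg2 was at 6.78 (14 UMIs) and Dsc2 at 5.327 (11 UMIs), while Jup was at 78.45, above the 28.23 to 42.97 of the other clusters. A cluster of 109 cells led by Rgs1, Ccl4 and Atf3 had Gja1 at 167.2 and Gjc1 at 11.12. Its Dsc2 was as low, at 5.132 (12 UMIs), with Dsg2 at 25.66.

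At P7 a cluster of 50 cells that was left unnamed, led by Npr3, Cytl1 and Vwf, held Gja5 at 142.6 CPM, of which 57.8% came from 1 cell. The larger Endothelial-like cluster of the same stage held 14.22.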
